A study of Drosophila melanogaster with 70 samples.

Results

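The bithorax complex holds the 3 Hox genes of the posterior body of Drosophila melanogaster, Ubx, abd-A and Abd-B, which give the segments of the posterior thorax and the abdomen their identity. The genes were taken by name, and all 3 were found among the 13842 protein-coding genes annotated on the 5 chromosome arms of the lists. With them were taken all domain boundaries with a midpoint between 16630000 and 17070000 on 3R (dm6), a region of 440 kb. It held 11 of 2591 boundaries at stage 5 in control embryos, 14 of 2499 at stage 5 after maternal mof RNAi and 12 of 2785 at stage 15.

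In this complex the order of the genes and of their control regions along the chromosome follows the order of the segments in which they act. Long stretches of noncoding DNA hold separate control regions for successive segments, and insulator elements, Fub and Mcp among them, keep neighbouring control regions apart. Polycomb and Trithorax group proteins hold the genes silent or active in later stages. The 3 genes are read in the same direction, from the right end to the left end on this map, so the right annotated ends are those nearest the transcription start sites. That direction is textbook knowledge, since the gene table used gives no strand.

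In situ Hi-C, which sequences pairs of DNA ends ligated because they lay near each other in the nucleus, was made from whole embryos staged by hand, 50 to 100 per the labels' protocol. The question put to the stage 5 libraries was whether depleting the mother of mof, the gene of the enzyme that acetylates lysine 16 of histone H4, alters chromosome folding in her embryos. Stage 5 is the blastoderm in nuclear cycle 14. Stage 15 lies 14 to 16 h after egg laying, when organs have formed.

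The stage 5 control group (3 libraries) came from mothers with the maternal driver mat-a-tubGal4 and a control RNAi, Bloomington stocks 7063 and 36304, crossed to siblings. The stage 5 mof RNAi group (2 libraries) is titled as mof RNAi and had stocks 7063 and 58281. Its strain label speaks of control RNAi mothers, so the group rests on the titles and the stock. The 8 libraries of stage 15 came from 4 groups of 2: males or females, from mothers with control RNAi (stocks 7062 and 36304) or mof RNAi (stocks 7062 and 58281). They were sorted by a Sxl-GFP background, GFP negative for males and GFP positive for females. The driver acts in the mother. Whether RNAi also acted in the embryo itself, and how much mof product was left, was not analysed here.

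Each list pools libraries. Both stage 5 groups have a list of their own, and 1 list is named by all 8 stage 15 libraries. Which of these 8 went into it is not stated, so the stage 15 list may mix sexes and RNAi groups. Since pooling hides how libraries of a condition vary, no difference was given a p-value. The depth behind the lists is unknown. Embryos were taken whole, so segments in which a gene is active and segments in which it is silent were measured together.

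At stage 5 most of Ubx lay in 1 domain of 62.5 kb, abd-A lay whole in another, and most of Abd-B lay in a domain of 37.5 kb. These domains were the same in the control and mof RNAi lists, and further domains lay between them and over the right ends of Ubx and Abd-B. All 11 control boundaries of the region had a partner after mof RNAi within 2.5 kb, which is 1 bin of the maps, beside 78.7% of the whole control list. At stage 15 none of the 10 control domains that lie whole in the region was called with both of its ends, beside 32.0% of all control domains. Of the 11 boundaries 7 had a partner there (63.6%), near the 61.7% of the whole list. The domain of abd-A was 35.0 kb in both stage 5 lists and 70.0 kb at stage 15.

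**Figure D1:**
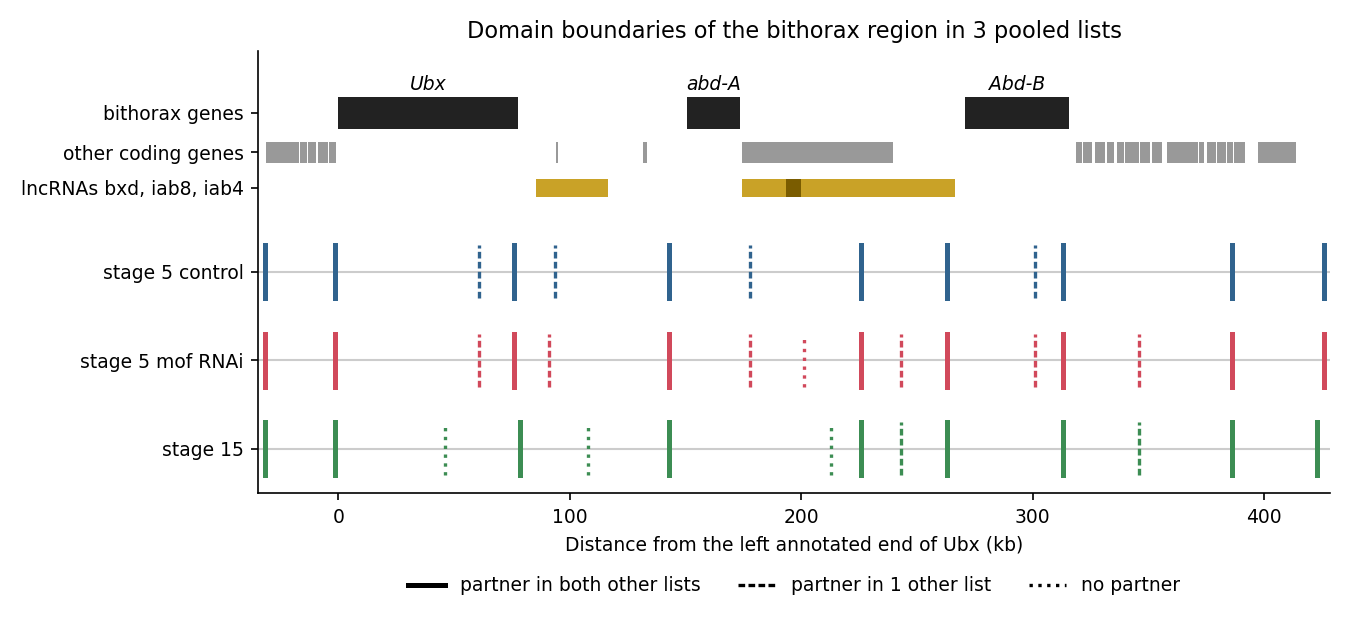
Position of every boundary of the bithorax region in the 3 lists, with the nearest boundary outside the region on each side, as distance from the left annotated end of Ubx in kb. Black bars are the 3 Hox genes, grey bars other protein-coding genes, ochre bars the noncoding RNAs bxd and iab8 and the darker bar iab4. Solid ticks have a partner within 2.5 kb in both other lists, dashed ticks in 1 other list and dotted ticks in none. The stage 5 lists run in parallel over all 11 control boundaries, while 3 stage 15 boundaries between the left end of Ubx and the left end of Abd-B stand alone.

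Ubx, the most proximal of the 3 genes, spans 77.8 kb (3R 16656623 to 16734426). On its left the boundary at 16653751 to 16656250 stood 1.62 kb from the gene, inside modSP, a serine protease gene of the immune response. It was called in the same bin in all 3 lists. Among the boundaries of the region it had the most negative score of each list, -0.693 in control, -0.593 after mof RNAi and -0.379 at stage 15. The score is the authors' own, with no scale stated, so it is read only by its sign and by its rank within a list, where rank 1 is the most negative. The ranks were 250 of 2591, 256 of 2499 and 477 of 2785.

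Near the right end of Ubx, where its transcripts start, a boundary lay at 16731251 to 16733750 in both stage 5 lists and at 16733751 to 16736250 at stage 15. The first position is 1.93 kb inside the gene and the other 0.574 kb past its end, a shift of 1 bin. Its score was -0.0630 in control (rank 1857) and -0.00210 after mof RNAi (rank 1906), among the less negative of both lists. At stage 15 it was 0.316, rank 2770 of 2785, near the least negative end of that list.

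Inside Ubx the stage 5 lists had another boundary at 16716251 to 16718750, with a score of -0.0935 in control and 0.000820 after mof RNAi. It left 78.2% of the gene in a domain of 62.5 kb and 19.3% in a domain of 15.0 kb. At stage 15 the boundary inside the gene lay 15 kb further left, at 16701251 to 16703750, with a score of 0.205. There Ubx was divided between domains of 47.5 kb (59.0% of the gene) and 32.5 kb (41.0%). The gene asRNA:PS4, an antisense RNA annotated within Ubx, lay whole in the smaller domain of 15.0 kb at stage 5 and in that of 32.5 kb at stage 15. Ubx held 2, 2 and 1 boundaries, abd-A none and Abd-B 2, 2 and 1 in the control, mof RNAi and stage 15 lists. Over all protein-coding genes, 11.8%, 11.5% and 12.5% held 1 or more. Genes that held 2 or more were fewer: 0.983% in the control list, 0.997% after mof RNAi and 0.954% at stage 15. Ubx and Abd-B were among them in both stage 5 lists and not at stage 15. The same was true of Antp, a Hox gene of the Antennapedia complex on the same arm, which held 3, 3 and 1 boundaries. The other Hox genes of that complex, lab, pb, Dfd and Scr, held 0 or 1 in each list. The shares over all protein-coding genes took no account of gene length, and its part in these counts was not tested.

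Between Ubx and abd-A lie 72.8 kb with the noncoding RNA gene bxd, the short coding gene CG31275 and the sugar transporter gene Glut3. Each list had 1 boundary inside bxd, at 3 different places. It lay at 16748751 to 16751250 in control, where it touched CG31275, and 1 bin to the left, at 16746251 to 16748750, after mof RNAi. At stage 15 it lay at 16763751 to 16766250, which is 15 kb to the right of the control position. The scores were -0.144, -0.0948 and 0.0800. In control, 2 bins between this boundary and the next were left out of the map, as were 2 after mof RNAi.

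The boundary that separates the Ubx side from the abd-A side lay at 16798751 to 16801250, in the same bin in all 3 lists. It was 7.21 kb from the left end of abd-A, with no coding gene at its midpoint, and its interval touched the noncoding RNA gene lncRNA:CR45750. Its score was -0.436 in control (percentile 36.2 of its list, counted from the most negative), -0.401 after mof RNAi (percentile 32.0) and -0.143 at stage 15 (percentile 71.6). At stage 15 it was the only boundary strictly between the ends of the complex, that at modSP and that inside Abd-B, with a score below 0.

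abd-A spans 22.8 kb (16807214 to 16830049) and held no boundary in any list. At stage 5 it lay whole in a domain of 35.0 kb between the boundaries starting at 16798751 and 16833751, with no bin left out. That domain was called in both stage 5 lists, and 1404 of the 2586 control domains were longer, so its length was near the median of 38.6 kb. The boundary on the right, 4.95 kb from the end of abd-A where its transcripts start, had scores of 0.0276 in control and 0.0241 after mof RNAi. At stage 15 the nearest boundaries to it lay 35 kb away on either side, that on the right starting at 16868751. The stage 15 domain of abd-A was therefore 70.0 kb, with 473 of 2780 domains longer, and it also took in the left parts of MSAmiP and of the noncoding RNA iab8 and the whole of the noncoding RNA iab4.

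The right flank of abd-A is 97.2 kb long and reaches to Abd-B. It is spanned for most of its length by the noncoding RNA gene iab8 (16831116 to 16923231), which overlaps the coding gene MSAmiP. Within it the hairpins mir-iab-4 and mir-iab-8 are annotated on the same 68 bases, 16856275 to 16856342. They are made from opposite strands, and both are known to repress Hox transcripts of the complex. In control the hairpins lay in a domain of 47.5 kb between boundaries at 16833751 and 16881251, and their nearest boundary was 21.3 kb away. After mof RNAi a boundary at 16855626 to 16858750 covered the hairpins in its interval, with its midpoint 0.846 kb from them. That boundary had no partner within 2.5 kb in control or at stage 15. Its score was 0.0471 (rank 2014 of 2499), and its interval was 3125 bp wide instead of 2500. Each stage 5 list held 140 boundaries wider than 1 bin. Between this boundary and the one on its left 1 bin was left out of the map. In control 1 bin was left out as well, within the domain of 47.5 kb. At stage 15 the hairpins lay in the 70.0 kb domain of abd-A.

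Further right, the boundary at 16881251 to 16883750 was called in the same bin in all 3 lists, with scores of 0.0331, 0.0130 and 0.254. A boundary at 16898751 to 16901250 was called after mof RNAi (score 0.192) and at stage 15 (0.235), in the same bin, and not in control. The boundary at 16918751 to 16921250, 7.21 kb from the left end of Abd-B, was again in all 3 lists. Its score was -0.304 in control (percentile 50.1), -0.201 after mof RNAi (percentile 55.8) and 0.307 at stage 15 (percentile 99.4). In all, this flank held 3 boundaries in control, 5 after mof RNAi and 4 at stage 15.

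Abd-B, the most distal gene, spans 45.0 kb (16927212 to 16972236) and is known to use several promoters. At stage 5 it was cut by boundaries at 16956251 to 16958750 and 16968751 to 16971250. They left 67.3% of the gene in a domain of 37.5 kb, 27.8% in a domain of 12.5 kb and 4.97% in the domain to the right. The control scores were -0.382 and -0.566, and those after mof RNAi -0.306 and -0.527. At stage 15 only the second of these was called, with a score of -0.337, and 95.0% of Abd-B lay in a domain of 50.0 kb. The distance from the missing boundary to the nearest at stage 15 was 12.5 kb. The boundary at 16968751, 2.24 kb from the right end of the gene, kept its bin in all 3 lists and ranked 562, 445 and 748.

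**Figure D2:**
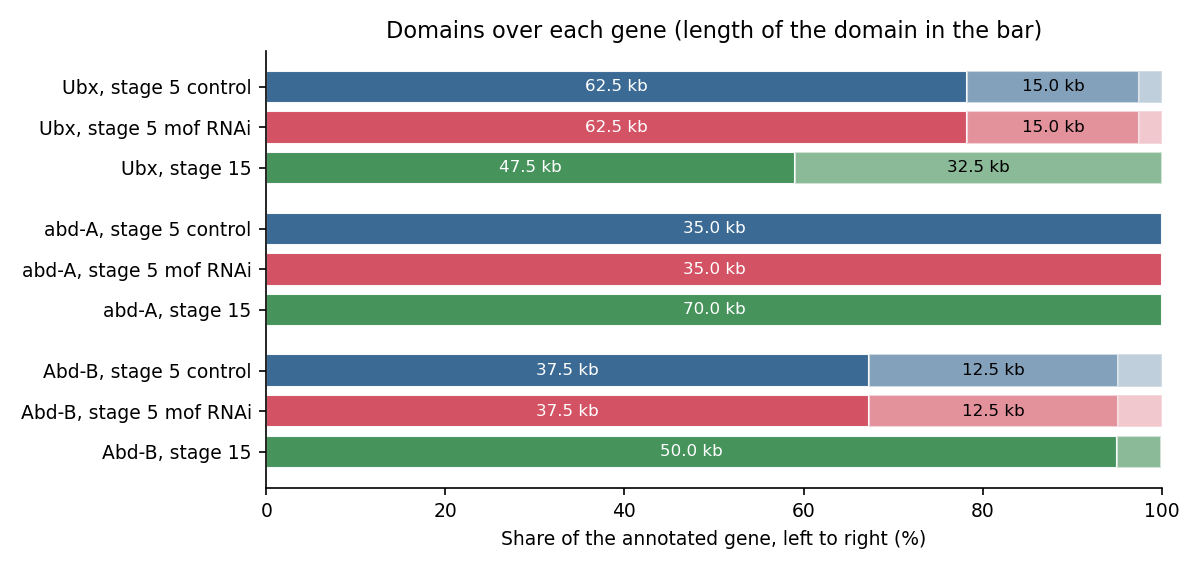
Division of each gene among the domains that overlap it, drawn from its left to its right annotated end as a share of the gene in %, for each list. The length in a bar is that of the whole domain in kb. The bars of the stage 5 lists are cut at the same places. At stage 15 Ubx is cut at another place, with 59.0% on the left, Abd-B has only the right-hand of its stage 5 cuts, with 95.0% on the left, and abd-A is whole in every list.

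On the right of Abd-B begin closely spaced genes of general function, among them the splicing factor gene Sf3a1 and the purine synthesis gene Adsl. In control 1 domain of 72.5 kb ran from inside Abd-B to the boundary at 17041251 to 17043750, over 21 coding genes in whole or part. After mof RNAi and at stage 15 a boundary between Sf3a1 and Irc, at 17001251 to 17003750, divided it into 32.5 and 40.0 kb. Its score was -0.0752 after mof RNAi and -0.358 at stage 15 (rank 602). The nearest control boundary was 32.5 kb away. In control and after mof RNAi 1 bin was left out of the map between the boundary inside Abd-B and the next one.

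The edges of the region fell between boundaries. Just outside on the left, the boundary at 16623751 to 16626250 near Fas1 was called in all 3 lists, with scores of -0.626, -0.539 and -0.365. Just outside on the right, the boundary at 17081251 to 17083750 in kuk ranked 22 of 2591 in control and 16 of 2499 after mof RNAi. At stage 15 the boundary lay 1 bin to the left, starting at 17078751. The outermost boundaries inside were those at modSP and at bdwf (17041251).

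The comparison of the stage 5 lists asked which boundaries of the complex were called after maternal depletion of mof. Of the 11 control boundaries, 11 had a partner (100%, 95% Wilson interval 74.1 to 100), 10 of them in the same bin and the boundary inside bxd 1 bin away. Over the whole control list 78.7% had a partner, a share inside that interval. In the other direction 11 of 14 had a control partner (78.6%, 52.4 to 92.4), beside 81.6% of the whole mof RNAi list. The 3 without one were those at the hairpins, at 16898751 in iab8 and at 17001251 between Sf3a1 and Irc. Of domains whole in the region, 7 of 10 control domains were called after mof RNAi (70.0%, 39.7 to 89.2), beside 58.4% of all. The 3 others were the domains that those extra boundaries divided. Of 13 mof RNAi domains 7 were called in control (53.8%), beside 60.5% of all. The intervals cover counting error alone and take each boundary or domain as drawn independently of its neighbours. For domains this does not hold, since neighbouring domains share an end.

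Of the 3 boundaries called after mof RNAi and not in control, 2 had a stage 15 partner in the same bin, those at 16898751 and 17001251. Over the genome 21.7% of the 460 such boundaries had a stage 15 partner. In the other direction, 2 of the 5 stage 15 boundaries without a control partner had one after mof RNAi, beside 8.51% of the 1187 such boundaries of the genome. With so few boundaries this is a description, and the stage 15 libraries include some from mof RNAi mothers.

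The comparison of stages asked which stage 5 boundaries were called when organs have formed. Of 11 control boundaries 7 had a stage 15 partner (63.6%, 35.4 to 84.8), beside 61.7% of the whole list. Since all 11 had a partner after mof RNAi, the same 7 necessarily had partners in both lists. Over the whole control list 54.2% had partners in both. These 7 were the boundary at modSP, that at the start of Ubx, those at 16798751, 16881251 and 16918751, that at the right end of Abd-B, and that at bdwf. The 4 without one lay inside Ubx, inside bxd, to the right of abd-A and inside Abd-B, at distances of 15, 15, 35 and 12.5 kb. Of the 12 stage 15 boundaries 7 had a control partner (58.3%, 32.0 to 80.7), beside 57.4% of the whole list, and 9 had a mof RNAi partner (75.0%, 46.8 to 91.1), beside 53.8%. Of the 14 mof RNAi boundaries, 9 had a stage 15 partner (64.3%, 38.8 to 83.7), beside 59.9%. In each of these comparisons the share of the whole list lay inside the interval of the region.

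None of the 10 control domains whole in the region was called at stage 15 (0%, 0 to 27.8), beside 32.0% of all control domains. In 8 of the 10 at least 1 end had no stage 15 partner. The other 2, of 37.5 and 72.5 kb, had both ends there and a further boundary between them, at 16898751 and at 17001251. Tolerances of 0, 5 and 10 kb gave the same count but could not have changed it. The unmatched ends lay 12.5 kb or more from a stage 15 boundary, and the other 2 domains were divided. An unmatched boundary counts against the domains on both of its sides, which the interval does not allow for. The other direction counts the same matches and is no second result: 0 of 11 stage 15 domains were called in control (0%, 0 to 25.9), beside 29.7% of all. Of 13 mof RNAi domains 4 were called at stage 15 (30.8%, 12.7 to 57.6), beside 29.5%: those on either side of 16898751 and on either side of 17001251. These were 4 of 11 stage 15 domains (36.4%), beside 26.5% of all. The flanking domain on the left of modSP, of 30.0 kb, was the same in all 3 lists. Stretches with no shared domain were not rare. Of 269 stretches of 440 kb laid end to end along the arms that held 5 or more control domains, 15.2% had none at stage 15.

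**Figure D3:**
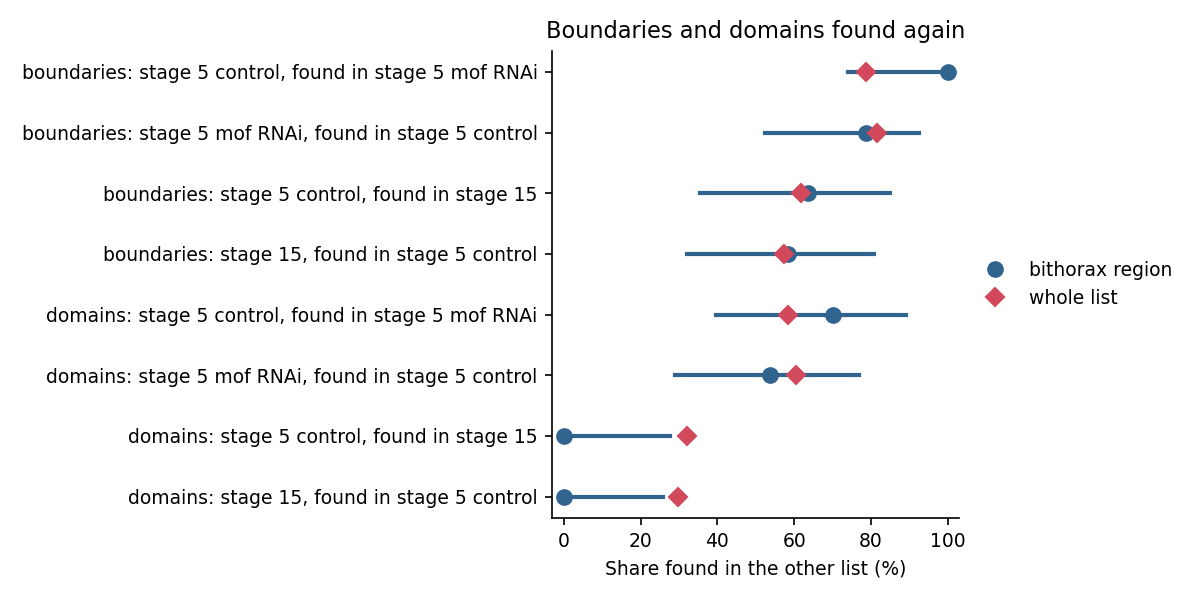
Share in % of boundaries and of whole domains of 1 list found in another, within 2.5 kb at the boundary or at both ends of the domain. Circles are the bithorax region with 95% Wilson intervals and diamonds the whole lists. The diamonds of boundaries lie within the intervals of the circles. Among boundaries the circle lies farthest from its diamond at 100% beside 78.7%, for control boundaries after mof RNAi. The circles for domains of stage 5 control and stage 15 lie at 0 in both directions, which count the same matches.

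The signs of the scores within the complex differed between the lists. In control 2 of 11 boundaries of the region had a score above 0, beside 23.0% of the list, and after mof RNAi 5 of 14, beside 23.4%. At stage 15 it was 7 of 12, beside 13.0% of the list, and all 7 were in the tenth of the list with the least negative scores. The 7 lay between 16701251 and 16921250, from inside Ubx to the left of Abd-B. The other 5 were at modSP, at 16798751, at the right end of Abd-B, at Sf3a1 and at bdwf. The stretches on 3R were laid so that the bithorax region is 1 of them. Of 280 stretches of 440 kb with 5 or more stage 15 boundaries, 1.79% (5 stretches, the bithorax region among them) had scores above 0 in at least 50%. The median stretch stood at 10.6%. The stretches were added after the scores of the region were seen, so this share is a description and not a test of the region.

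**Figure D4:**
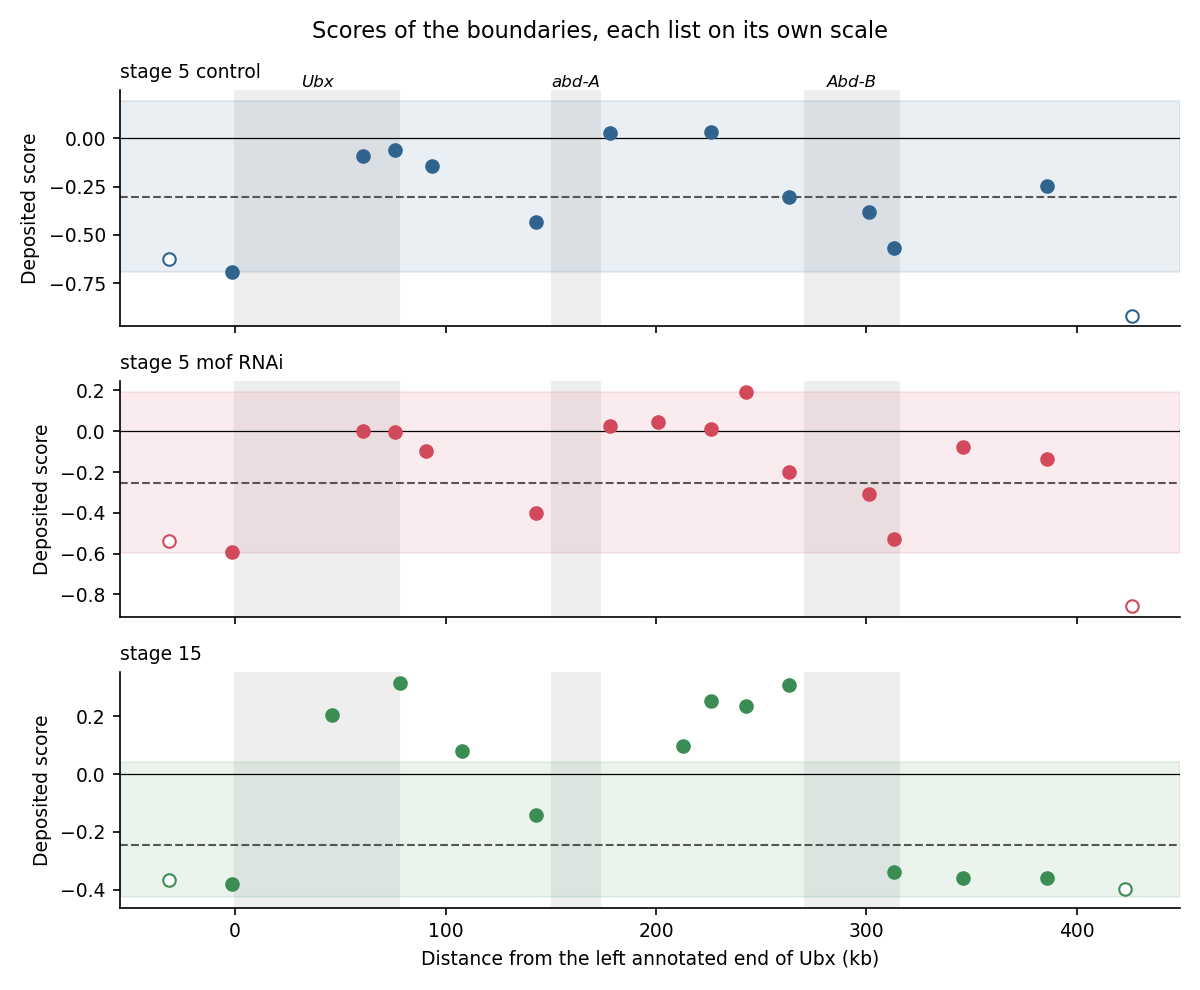
Deposited score of each boundary against distance from the left annotated end of Ubx in kb, 1 panel per list with its own scale. Open circles are the nearest boundaries outside the region, the dashed line is the median of the whole list, the coloured band runs from its 10th to its 90th percentile, and grey columns are the 3 genes. At stage 15 the 7 scores above 0 lie above the band, between the negative scores at modSP and at the right end of Abd-B.

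A coarser division appeared when each list was reduced to its more negative 50% by score, which left 4 boundaries of the region in each list. In control and after mof RNAi those at modSP, at 16798751 and both boundaries inside Abd-B remained. Ubx then lay whole in a domain of 145.0 kb, and abd-A shared a domain of 157.5 kb with most of Abd-B. In control the shared domain rests on the boundary at 16918751, which ranked 1297 where the reduced list ended at 1295. With that boundary kept, abd-A lay in a domain of 120.0 kb and most of Abd-B in its domain of 37.5 kb. At stage 15 the boundaries at modSP, at the right end of Abd-B, at Sf3a1 and at bdwf remained. All of Ubx and abd-A and 95.0% of Abd-B then lay in 1 domain of 315.0 kb, and 58 of the 1387 domains of that reduced list (4.18%) were longer. The boundary at 16798751 was thus kept in both stage 5 lists and not at stage 15, and those at Sf3a1 and bdwf only at stage 15. The boundary at 16956251 is not in the stage 15 list.

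Boundaries within the complex lay away from the ends of coding genes. Of the boundaries between the outer ends of Ubx and Abd-B, 3 of 9 in control, 2 of 11 after mof RNAi and 2 of 9 at stage 15 lay within 2.5 kb of where a protein-coding gene begins or ends. The whole lists stood at 76.1%, 73.7% and 76.4%. The boundaries of the region outside that span, at modSP, Sf3a1 and bdwf, all had one. Coding genes are sparse there, with 6 within the span (1.90 per 100 kb, beside 10.6 over all arms and 22.5 to the right of Abd-B), and the part of this spacing in the counts was not tested. Of the 6 annotated ends of the 3 genes, 3 were within 2.5 kb of a boundary in each list, both ends of Ubx and the right end of Abd-B. With a window of 1 kb the count was 0, 0 and 1 of 6. Counted by gene, 2 of the 3 (Ubx and Abd-B) had at least 1 end within 2.5 kb of a boundary in each list. Of all protein-coding genes, 31.6% in control, 29.5% after mof RNAi and 34.5% at stage 15 had at least 1 end at a boundary.

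The region had 2.50 boundaries per 100 kb in control, 3.18 after mof RNAi and 2.73 at stage 15, beside 1.94, 1.89 and 2.15 on arm 3R. Its median domain was 37.5, 25.3 and 32.5 kb, beside 38.6, 40.0 and 35.0 kb in the whole lists. Bins left out of the stage 5 maps were read from the numbers in the boundary names. Over the domains that overlap the region, with those that reach past its edges, they were 4 of 183 in both lists. That is 2.19%, beside 9.10% and 9.09% over all arms. The stage 15 numbers run without gaps on all arms, so from them it cannot be told whether bins were left out of that map.

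The Antennapedia complex, with the Hox genes lab, pb, Dfd, Scr and Antp of the head and anterior thorax, lies on the same arm. Its span of 338 kb held 8, 8 and 7 boundaries in the 3 lists. Scores above 0 stood at 1 of 8, 1 of 8 and 2 of 7, beside 2 of 9, 5 of 11 and 7 of 9 within the span of the bithorax genes. Of its 7 control domains 4 were called at stage 15, beside 0 of 8 in the bithorax span. The domains of lab, pb and Scr were the same in all 3 lists within 2.5 kb at each end, while those of Dfd and Antp differed at stage 15. The difference between the complexes was not tested, since each is 1 stretch of 1 pooled list.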

How the data were processed

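In situ Hi-C libraries were cut with DpnII and read as pairs of 75 bp, per the labels' protocols. The authors deposited domain boundaries on bins of 2.5 kb of dm6 with a score whose scale is not stated. The aligner, the boundary caller and its settings were not named by the sources used here. Of 70 samples, the 13 Hi-C libraries lie behind the lists, and the other 57 were not analysed here. A second stage 5 list was identical to the control list and was not used.

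A boundary stands at the midpoint of its interval. Partners lie at most 2.5 kb apart. Domains run from each midpoint to the next. Intervals are 95% Wilson intervals (SciPy 1.17.1, Python 3.11.15). Genes come from RefSeq's table of release 6, which matches dm6. Matching was tested on simulated data. Lists hold no read counts, so the depth is unknown.

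The named genes are Ubx, abd-A and Abd-B, every annotated gene of the region and the Antennapedia complex Hox genes. The genes and region were chosen with earlier results of these data known. The stretches of 440 kb and the tolerances for domains were added after the data were seen.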

Additional observations from a re-analysis of the deposited data

How the results depend on the processing

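No paired analysis was possible because each condition has 1 pooled list, in which replicate numbers are lost. For the same reason no library could be left out. Of 97 alternatives over 35 results, 76 stayed within the interval of the share, within 1.5 times the count or within 1 bin of the length, and 21 did not. The latter came from keeping the more negative 50% of the scores of a list, from that control list with the next boundary of the region kept, or from a window of 1 kb around gene ends. With the most negative 50% the region held 4 boundaries in each list, and 100% of those after mof RNAi had a control partner. Ubx then held 0 boundaries in every list. Its domain was 145.0 kb in both stage 5 lists, those of abd-A and Abd-B were 157.5 kb (158 when rounded), and all 3 were 315.0 kb at stage 15. Ending the control list at 1297 boundaries instead of 1295, chosen after the data were seen, gave 145 kb for Ubx and 120 kb for abd-A. With the window of 1 kb, the ends at a boundary numbered 0, 0 and 1 of 6. These differences follow from the smaller set of boundaries or the narrower window. The shares of boundaries found again with partners allowed 0, 5 or 10 kb apart, matched one to one, for the span of the genes alone and a region widened by 100 kb all lay inside the intervals given. For control domains found at stage 15, tolerances up to 10 kb could not change the count of 0. The unknown depth limits any statement that a boundary is absent from a list.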
